A study of Drosophila melanogaster with 48 samples.

Results

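The mitochondrial genome of Drosophila melanogaster was followed through metamorphosis as the set of all genes that the deposited expression table places on the mitochondrial chromosome. There were 37 of them among the 17558 genes of the table: 13 protein-coding genes, 2 rRNA genes and 22 tRNA genes. RNA was sequenced from whole animals in 48 libraries, 3 biological replicates for each of 8 stages in 2 genotypes, and each replicate was a pool of animals. The genotypes were Ptth mutants (labelled ptth120BC2) and wild type (labelled wOB). By the methods of the study, the mutation is a short deletion in the last exon of Ptth, so reads on Ptth do not check the genotype of a library. Prothoracicotropic hormone, the product of Ptth, is the brain neuropeptide that stimulates ecdysone synthesis and so sets the time of pupariation. The stages were early (L3E) and late (L3L) in the third larval instar, white prepupa (WP), days 1 to 4 after pupariation (P1 to P4) and adults 1 to 3 h after emergence (A0). Mutant larvae were collected at 96 h (L3E) and 120 h (L3L) after egg laying, and wild-type larvae at 72 h (L3E) and 96 h (L3L), because mutants reach each stage later. The genotypes could therefore be compared at equal stage or, once, at an equal 96 h. The sex of the pools was not given in the sources used here.

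The mitochondrial genome encodes subunits of respiratory complexes I, III and IV and of ATP synthase (complex V), together with the rRNAs and tRNAs of the mitochondrial ribosome's own translation system. Both strands are transcribed into long precursors, which are cut largely at the tRNAs that lie between the other genes, and each mature RNA then has its own stability and tail. All other subunits of these complexes, and the machinery that transcribes and processes mitochondrial RNA, come from nuclear genes. Larval tissues are broken down and adult tissues, with their mitochondria-rich flight muscle, are built in the pupa.

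Levels are given in FPKM, reads scaled to the length of the gene and to library size, with the scaling between libraries that the deposited values carry. Reads on genes numbered 17346100 to 29784621 per library in mutants (median 21228339) and 16712549 to 26091126 in wild type (median 21125884). A gene was called changed at an adjusted p below 0.05 in a limma test on log2(FPKM + 1), with the Benjamini-Hochberg adjustment over all 12282 genes that reached 3 FPKM in at least 1 library. Log2 changes are on this scale, which understates the change of genes near 1 FPKM, and a fold is the ratio of mean FPKM. Across all tested genes 3 libraries stood apart from their replicates: mutant P3 replicate 3, mutant A0 replicate 3 and wild-type A0 replicate 1. The RNA came from whole animals, so fewer mitochondria-rich cells and less mitochondrial RNA per cell cannot be told apart. The libraries were made from poly(A) RNA, and a level is therefore that of RNA captured by its tail, not of all RNA of the gene.

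The genes lie close together on the circular genome. In the coordinates of the table (build BDGP6 by the labels), mt:lrRNA (FBgn0013686), the large ribosomal RNA, spans 12734 to 14058 on the minus strand, and mt:srRNA (FBgn0013688), the small ribosomal RNA, spans 14131 to 14916 on the same strand. The protein-coding genes were 9 on the plus strand and 4 on the minus strand, namely mt:ND1, mt:ND4, mt:ND4L and mt:ND5. Several neighbours overlap in these coordinates. mt:ATPase8 shares 7 bases with mt:ATPase6, mt:ND4L shares 1 base with mt:ND4, mt:CoIII shares 1 base with mt:ATPase6, and mt:ND2 shares 2 bases with mt:tRNA:W. The ATPase pair and the ND4 pair are each known to share an mRNA in animals, so reads that touch both partners could be split or dropped in counting, and the levels of mt:ATPase8 and mt:ND4L are uncertain for that reason. Whether the counting used strand was not given in the sources used here.

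Per length, mt:lrRNA was the most abundant mitochondrial RNA in all 48 libraries, with a mean of 31537 FPKM, and it took 56.1% of all mitochondrial reads. The complex IV subunit mRNAs mt:CoIII and mt:CoI came next in all 48 libraries, in that order, with means of 9233 and 7452 FPKM. Below them came mt:CoII (4265 FPKM), mt:Cyt-b of complex III (3688 FPKM) and mt:ATPase6 of complex V (2772 FPKM), whose ranks crossed in a few libraries. The complex I mRNAs followed, with mt:ND1 at 1488 FPKM, mt:ND3 at 1090, mt:ND4 at 1049, mt:ND5 at 994, mt:ND2 at 502 and mt:ND4L at 230 FPKM. The ranks of mt:ND3, mt:ND4 and mt:ND5 interchanged freely, so that their order is not resolved. At the low end stood mt:srRNA at 71.5 FPKM, mt:ND6 at 6.06 FPKM and mt:ATPase8 at 3.24 FPKM. The 2 rRNAs of the same ribosome thus stood at opposite ends of the order in captured RNA, and mt:ATPase8 averaged 10.6 reads per library beside 36486 reads on its neighbour mt:ATPase6.

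**Figure D1:**
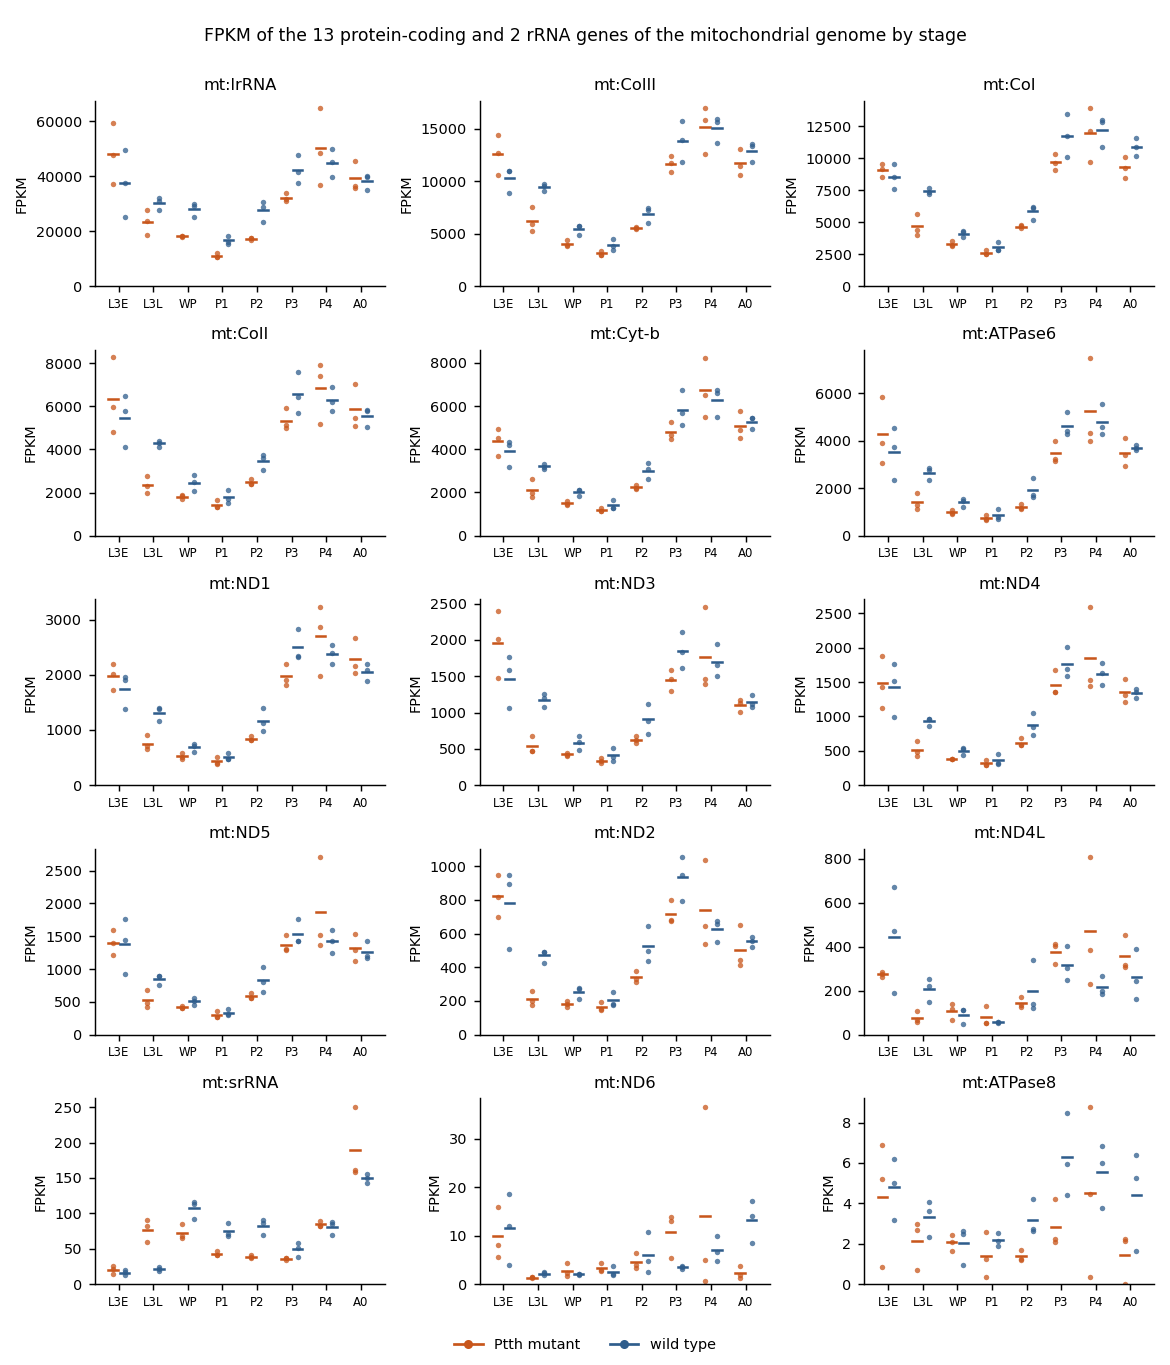
FPKM (vertical axes, linear, each from 0) of the 13 protein-coding and 2 rRNA genes at 8 stages (horizontal axes), with 1 point per library and a bar at the mean of 3, Ptth mutants left and wild type right at each stage. At L3L 12 of the 13 protein-coding genes were called lower in mutants by limma, where 20.0% of all genes tested were called lower. Of these, mt:CoIII turned to 0.06 under quantile normalization. The rRNA mt:srRNA was called higher in mutants.

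In larvae late in the third instar most protein-coding mRNAs were lower in mutants than in wild type, except that mt:CoIII changed sign under quantile normalization. At L3L, 12 of 13 were called, all lower in mutants, where 44.4% of all genes tested were called in either direction and 20.0% were called lower. Their median log2 change was -0.80 with a range of -1.42 to -0.42, against a median of 0.02 over all genes tested. Above 2-fold there were 3 of 13, against 2.64% of all genes tested that were called lower above 2-fold. The most abundant of these mRNAs, mt:CoIII, measured 5911, 5240 and 7513 FPKM in L3L mutants, against 9700, 9510 and 9053 FPKM in wild type. No mutant library reached the lowest wild-type library. The change was 0.66-fold (log2 change -0.61, SE 0.17, adjusted p = 0.033, limma). For mt:CoI, the core subunit of cytochrome c oxidase, mutants had 4420, 4017 and 5628 FPKM and wild type 7405, 7696 and 7175 FPKM, 0.631-fold (adjusted p = 0.018). The third complex IV mRNA, mt:CoII, stood at 0.55-fold (log2 change -0.87, SE 0.13, adjusted p = 0.0049). Of complexes III and V, mt:Cyt-b stood at 0.665-fold and mt:ATPase6 at 0.533-fold (adjusted p = 0.024 and 0.012).

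The complex I mRNAs included the largest differences at L3L. For mt:ND2, mutants had 201, 174 and 260 FPKM and wild type had 491, 493 and 425 FPKM. Every mutant library was below every wild-type library, at 0.451-fold (log2 change -1.16, SE 0.16, adjusted p = 0.0036). The mRNA mt:ND3 measured 467, 471 and 679 FPKM in mutants and 1250, 1196 and 1070 FPKM in wild type, 0.46-fold (adjusted p = 0.0044). For mt:ND4L the change was 0.374-fold (77.3 ± 27.2 FPKM in mutants and 207 ± 55.4 FPKM in wild type, SD, n = 3 each, adjusted p = 0.016 in limma). The remaining called genes of complex I were mt:ND1 (0.576-fold), mt:ND4 (0.553-fold), mt:ND5 (0.623-fold) and mt:ND6 (0.627-fold). The call of mt:ND6 rested on 11 to 14 reads per mutant library and 16 to 20 reads per wild-type library. Only mt:ATPase8 was not called (2.12 ± 1.23 FPKM in mutants and 3.35 ± 0.895 FPKM in wild type, SD, n = 3 each, adjusted p = 0.28 in limma), with 2 to 9 reads per mutant library.

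How many genes passed the test at L3L depended on single libraries. The count of lower protein-coding genes was 7 when mutant replicate 1 was left out and 6 when mutant replicate 2 was. Of the wild-type libraries, leaving out replicate 1 gave 6 and leaving out replicate 2 gave 7. The calls of mt:CoII, mt:ND1, mt:ND2 and mt:ND3 held in all 15 alternatives, while mt:CoIII changed sign under quantile normalization (0.06). Scaled to all reads on genes, the median log2 change of the 13 was -0.54 and that of all genes tested moved to 0.21, so that the gap between them was -0.75, beside -0.82 with the deposited scaling and -0.48 under quantile normalization. The summed level of 14 flight muscle markers, among them genes such as Mhc that larval muscle also expresses, was 5144 to 5729 FPKM in L3L mutants and 9181 to 9499 FPKM in wild type. That of 3 larval muscle markers was 4892 to 5626 FPKM in mutants and 9545 to 10298 FPKM in wild type. That of 6 larval fat body markers was 20324 to 29818 FPKM in mutants and 36369 to 40066 FPKM in wild type. The fat body markers did not all move together. Of the 6, 4 were called lower in mutants and 1 higher, where 44.4% of all genes tested were called in either direction. All of these markers were detected at this stage except fln in wild type. Testis markers (21 genes) summed to 318 to 478 FPKM in mutants and 102 to 144 FPKM in wild type, with Mst84Da at 0 in wild type. Of the 3 male dosage compensation genes only roX1 was called, higher in mutants. It was at 67.9, 61.9 and 51.1 FPKM in mutants and 31.3, 27.3 and 43.4 FPKM in wild type (adjusted p = 0.021, limma). The part of these tissues and of the sex of the pools in the mitochondrial difference was not tested.

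The mixture of mRNAs also differed at L3L. As a share of the summed FPKM of the 13 genes, mt:CoIII made up 32.2%, 32.0% and 31.9% in mutants, against 29.5%, 29.2% and 29.9% in wild type. In the same libraries mt:ND3 made up 2.54%, 2.88% and 2.88% in mutants, against 3.80%, 3.67% and 3.54% in wild type. In all, 11 of 16 ratios examined at L3L did not overlap between genotypes, against 0 of 16 at L3E. Separation was not particular to L3L. It held for 9 of 16 ratios at A0, 6 at P3, 5 at P1, 5 at P2, 2 at P4 and 1 at WP. With 3 libraries against 3 the exact permutation test (two-sided) cannot give a p below 0.1, and the smallest adjusted value over the 128 ratios and stages was 0.328, so none of these passed.

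**Figure D2:**
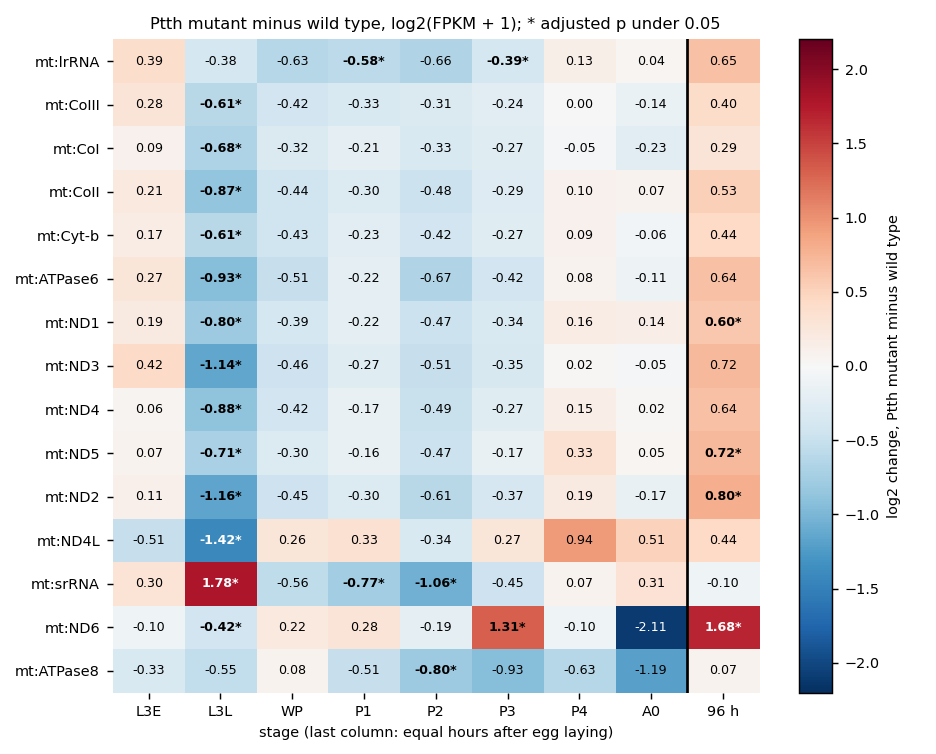
Log2 change (Ptth mutant minus wild type, color and printed value) of the 13 protein-coding and 2 rRNA genes (rows, by mean level) at 8 stages and at an equal 96 h after egg laying (columns); stars mark an adjusted p below 0.05 in limma. At L3L 12 protein-coding genes are starred below 0 and mt:srRNA above 0 (mt:CoIII turned to 0.06 under quantile normalization), and at 96 h 4 protein-coding genes are starred above 0.

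At an equal 96 h after egg laying the direction was the other way. This compares L3E mutants with L3L wild type, so the wild-type libraries are the ones used at L3L. Higher in mutants were 4 of 13 protein-coding genes, against 14.3% of all genes tested, and all 13 changes were positive (median log2 change 0.60, all genes 0.03). In 12 of 13 the libraries did not overlap, against 24.1% of all genes tested that were higher without overlap. For mt:ND2, 96-h mutants had 948, 819 and 698 FPKM and wild type had 491, 493 and 425 FPKM, 1.75-fold (log2 change 0.80, SE 0.13, adjusted p = 0.013). The other called genes were mt:ND5 (1.65-fold, adjusted p = 0.015), mt:ND1 (1.51-fold, adjusted p = 0.029) and mt:ND6 (4.61-fold, adjusted p = 0.026), the last with 42 to 105 reads per mutant library. For mt:CoI the values were 9178, 9545 and 8535 FPKM in mutants and 7405, 7696 and 7175 FPKM in wild type, without overlap but not called (adjusted p = 0.26). Leaving out mutant replicate 3 gave 9 called genes. It gave 1 called gene without mutant replicate 2 or without wild-type replicate 1 or 2, and 0 without wild-type replicate 3. Muscle markers were also higher: the 14 flight muscle markers summed to 13192 to 15483 FPKM in mutants and 9181 to 9499 FPKM in wild type, with fln at 0 in wild type, and 7 of them were called higher. The 3 larval muscle markers summed to 15292 to 16447 FPKM in mutants and 9545 to 10298 FPKM in wild type, and 2 were called higher. Their part in the mitochondrial difference was not tested. The median stood at 0.33 when scaled to all reads on genes and at 0.17 under quantile normalization. All mitochondrial reads together were 8.10%, 7.32% and 6.29% of reads on genes in mutants at 96 h, and 5.93%, 6.13% and 5.56% in wild type (exact permutation p = 0.1, the smallest possible).

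At L3E the genotypes overlapped for all 13 protein-coding and both rRNA genes. By limma, 0 of 13 protein-coding genes were called, 0 had an unadjusted p below 0.05 and 0 were called by limma-voom, where 41.9% of all genes tested were called. Under quantile normalization 4 were called lower, and without wild-type replicate 2 there was 1. Shares of all genes tested under these settings are not given here. The spread within groups was wide. For mt:CoIII, mutants had 14373, 12653 and 10624 FPKM and wild type had 10938, 8902 and 11018 FPKM. Neither rRNA was called at this stage, where limma gave 0 of 2 with an unadjusted p below 0.05. The difference of the genotype change between L3L and L3E was itself tested. It passed for 10 protein-coding and both rRNA genes, against 40.4% of all genes tested, with mt:ND3 the largest in size (-1.56, SE 0.28, adjusted p = 1.7e-05). From L3L to WP it passed, of the protein-coding and rRNA genes, for mt:ND4L and mt:srRNA, against 22.4% of all genes tested.

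From WP to P3 the median change of the protein-coding mRNAs was below 0, except that at P1 it was 0.00 under quantile normalization. With the deposited scaling these medians were smaller in size than at L3L, but under the other scalings that of P2 was not: it was -0.53 at P2 and -0.51 at L3L under quantile normalization, -0.58 and -0.56 scaled to reads on nuclear genes, and -0.54 at both scaled to all reads on genes. At WP, 0 of 13 protein-coding genes were called by limma, where 8.26% of all genes tested were called in either direction. There were 8 with an unadjusted p below 0.05, and limma-voom called 7 lower. The shares of all genes tested under either rule are not given here, so neither count is set against them. Without wild-type replicate 3 limma called 1 lower. In 10 of 13 the mutant libraries were all below the wild-type libraries, against 20.9% of all genes tested that were lower without overlap. The 10 changes ran from 0.698-fold for mt:ATPase6 to 0.811-fold for mt:ND5, and mt:ND4 was nearest to the threshold (377, 375 and 373 FPKM in mutants and 531, 537 and 441 FPKM in wild type, adjusted p = 0.053). The 3 genes that overlapped were mt:ND4L, mt:ND6 and mt:ATPase8. The 14 flight muscle markers at WP summed to 84.9 to 92.0 FPKM in mutants and 166 to 184 FPKM in wild type, with fln at 0 in both. The 3 larval muscle markers summed to 122 to 150 FPKM in mutants and 186 to 208 FPKM in wild type. The part of both lists was not tested.

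At P1, 0 of 13 protein-coding genes were called by limma, 1 had an unadjusted p below 0.05 and limma-voom called 1, where 36.7% of all genes tested were called. At P1 mt:CoIII and mt:CoI were lower without overlap, 2 of 13 where 23.7% of all genes tested were. For mt:CoIII, mutants had 3384, 2983 and 3014 FPKM and wild type had 3467, 4487 and 3863 FPKM (0.794-fold, adjusted p = 0.089). At P2, 11 of 13 were lower in mutants without overlap, against 15.2% of all genes tested, with a median log2 change of -0.47. One of them, mt:ATPase8, was called, where 9.43% of all genes tested were called, and this rested on 4 to 7 reads per mutant library and 11 to 18 reads per wild-type library. It was not called without any 1 of the 6 libraries. With 9 unadjusted p values below 0.05, limma-voom called 4 and the scaling to all reads on genes 7. Shares of all genes tested under these rules are not given here. For mt:ATPase6, P2 mutants had 1316, 1149 and 1131 FPKM and wild type had 1729, 1624 and 2432 FPKM, 0.622-fold (adjusted p = 0.08). At P3, 4 of 13 were lower without overlap, against 25.5% of all genes tested. The called gene there was mt:ND6, higher in mutants with 110, 62 and 196 reads, against 34, 43 and 32 reads in wild type (3.13-fold, adjusted p = 0.043), where 26.4% of all genes tested were called. By limma 6 of 13 had an unadjusted p below 0.05 at P3. Limma called 0 of 13 lower there with the deposited scaling, while limma-voom called 4 lower, quantile normalization 7, the scaling to all reads on genes 3 and that to reads on nuclear genes 4. As at P2, the matching shares of all genes tested are not given, so no excess over them is read from these counts. The call of mt:ND6 was lost without mutant replicate 1 or 3 or any 1 of the 3 wild-type libraries, and without the mutant library that stood apart. Markers of sex and testis also differed at P3. The male dosage compensation RNA roX1 was at 26.7, 31.7 and 46.5 FPKM in mutants and 61.3, 59.0 and 67.5 FPKM in wild type (adjusted p = 0.035), and roX2 was called lower as well. Of 17 tested testis markers 10 were called lower, and the 21 in all summed to 1264 to 2117 FPKM in mutants and 2397 to 2747 FPKM in wild type. Their part in the P3 differences was not tested.

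Summed over the genome, mitochondrial genes took a smaller share of reads in mutants from WP to P3. At WP the share was 5.09%, 4.83% and 4.63% in mutants, against 6.90%, 6.79% and 6.27% in wild type. At P1 it was 4.15%, 3.64% and 3.68% in mutants, against 4.84%, 5.84% and 5.13% in wild type. At P2 it was 4.98%, 4.78% and 4.95% in mutants, against 7.73%, 6.77% and 8.21% in wild type, and at P3 it averaged 7.63 ± 0.411% in mutants and 9.86 ± 1.09% in wild type (SD, n = 3 each). At each of these 4 stages the groups did not overlap, with an exact permutation p of 0.1, the smallest possible, and 0.2 after adjustment over the 8 stages. The rRNA part of the share was lower without overlap at the same 4 stages. The protein-coding part was lower without overlap at L3L, WP, P2 and P3. The 14 flight muscle markers summed to 757 to 823 FPKM in P1 mutants and 196 to 230 FPKM in wild type. At P2 they summed to 6311 to 7287 FPKM in mutants and 3584 to 4891 FPKM in wild type. The 6 larval fat body markers summed to 2835 to 3452 FPKM in P1 mutants and 3884 to 4811 FPKM in wild type. At P2 those sums overlapped, at 3277 to 3829 FPKM in mutants and 3555 to 4564 FPKM in wild type. The part of these tissues in the share of reads was not tested.

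**Figure D3:**
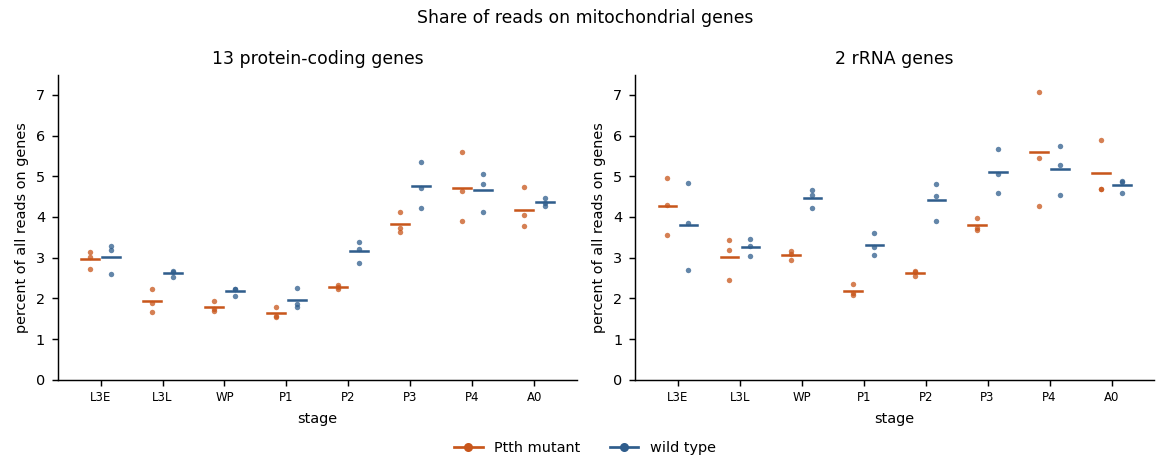
Percent of all reads on genes (vertical axis, from 0) that fell on the 13 protein-coding (left panel) and 2 rRNA genes (right panel) by stage, 1 point per library, bars at the mean of 3, Ptth mutants left and wild type right at each stage. The rRNA share of mutants lies below that of wild type without overlap from WP to P3, and the groups overlap at P4.

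At P4, 0 of 13 protein-coding genes were called by limma, 0 had an unadjusted p below 0.05 and 0 were called by limma-voom, where 2.86% of all genes tested were called. Mutant replicate 2 was the highest of the 6 libraries for both genes given next. The mRNA mt:ND2 measured 541, 1037 and 643 FPKM in mutants and 549, 677 and 658 FPKM in wild type. The mRNA mt:ND5 measured 1367, 2707 and 1521 FPKM in mutants and 1240, 1590 and 1432 FPKM in wild type. At A0, 0 of 13 were called by limma, 1 had an unadjusted p below 0.05 and limma-voom called 0, where 0.790% of all genes tested were called. That gene was mt:ND6, with 44, 18 and 17 reads in mutants and 83, 181 and 120 reads in wild type, 0.177-fold without overlap (adjusted p = 0.097). Reads of mt:ATPase8 were 8, 9 and 0 in A0 mutants and 5, 17 and 17 in wild type. In adults roX1 was at 0.158, 0.239 and 1.55 FPKM in A0 mutants and 0.282, 0.21 and 0.201 FPKM in A0 wild type, whereas it lay between 23.8 and 67.9 FPKM in the libraries of all other stages. Any difference between A0 and earlier stages therefore cannot be told apart from the sex of the pools.

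The 2 rRNAs behaved unlike each other. The small rRNA mt:srRNA measured 89.9, 60.0 and 81.4 FPKM in L3L mutants, against 23.7, 21.6 and 19.2 FPKM in wild type. The lowest mutant library was above the highest wild-type library by more than 2-fold. The change was 3.58-fold (log2 change 1.78, SE 0.17, adjusted p = 0.0014), and this call held in all 15 alternatives. The large rRNA mt:lrRNA measured 23835, 18634 and 27744 FPKM in L3L mutants and 30836, 31955 and 27716 FPKM in wild type and was not called (adjusted p = 0.32). From WP to P3 the sign of the mt:srRNA difference was the other way. At P1 it stood at 46.1, 41.7 and 41.4 FPKM in mutants, against 70.2, 85.9 and 67.6 FPKM in wild type (0.578-fold, adjusted p = 0.0058), again in all 15 alternatives. At P2 it stood at 40.5, 37.1 and 38.9 FPKM in mutants, against 86.8, 70.0 and 91.0 FPKM in wild type (0.47-fold, adjusted p = 0.013). This last call was lost without any 1 of the 3 mutant libraries and without wild-type replicate 1, with log2 changes between -1.09 and -1.02.

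At P1 mt:lrRNA was also lower, with 11976, 10613 and 10690 FPKM in mutants and 15332, 18339 and 16245 FPKM in wild type (0.667-fold, adjusted p = 0.043). At P3 it had 34009, 31709 and 30883 FPKM in mutants and 37596, 41490 and 47783 FPKM in wild type (0.761-fold, adjusted p = 0.045). Both calls were lost without any 1 of the 6 libraries of their stage. Under quantile normalization both changes are 0.00 by construction, since mt:lrRNA ranks first in every library. At WP mt:lrRNA measured 18088, 18165 and 17958 FPKM in mutants and 30026, 29199 and 25192 FPKM in wild type, 0.642-fold without overlap but not called (adjusted p = 0.43).

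The difference in mt:srRNA followed a rise that came at different stages. In mutants it rose at L3L, to 77.1 ± 15.4 FPKM against 20.5 ± 5.75 FPKM at L3E (SD, n = 3 each, 3.76-fold, adjusted p = 4e-08 in limma), and was not called at WP against L3L (72.8 ± 10.3 FPKM, adjusted p = 0.78). In wild type the step at L3L was small, to 21.5 ± 2.28 FPKM against 16.3 ± 3.74 FPKM at L3E (1.32-fold, adjusted p = 0.036 in limma), and the large step came at WP, to 107 ± 13.2 FPKM (4.99-fold, adjusted p = 6.2e-11 in limma). The test of the difference between genotypes in these steps gave 1.48 at L3L (SE 0.25, adjusted p = 6.6e-06) and -2.34 at WP (SE 0.25, adjusted p = 5.4e-09). Over the same larval interval the protein-coding mRNAs did the reverse, as given below. In both genotypes mt:srRNA was highest at A0, at 251, 161 and 158 FPKM in mutants and 150, 143 and 155 FPKM in wild type.

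Expressed as a ratio, mt:lrRNA over mt:srRNA was 265, 310 and 341 in L3L mutants and 1299, 1478 and 1444 in wild type (log2 difference -2.21, SE 0.12). By WP the ratios overlapped, at 264, 278 and 212 in mutants and 265, 250 and 273 in wild type. At P1 and P2 the ratio was higher in mutants without overlap, with means of 257 against 224 in wild type at P1 and 445 against 333 in wild type at P2. Both rRNAs together over the 13 protein-coding mRNAs gave a ratio of 1.303, 1.142 and 1.181 in L3L mutants and 0.9375, 0.9805 and 0.9173 in wild type. It was lower in mutants without overlap at WP, P1, P2 and P3, with means of 1.33 against 1.564 in wild type at WP and 1.035 against 1.298 in wild type at P1. The ratio of minus-strand to plus-strand mRNAs was 0.1415, 0.1409 and 0.1475 in A0 mutants and 0.120, 0.129 and 0.119 in wild type, and did not overlap at P4 either. Each of these non-overlapping comparisons has an exact permutation p of 0.1, and 0.328 after adjustment over the 128 tested.

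**Figure D4:**
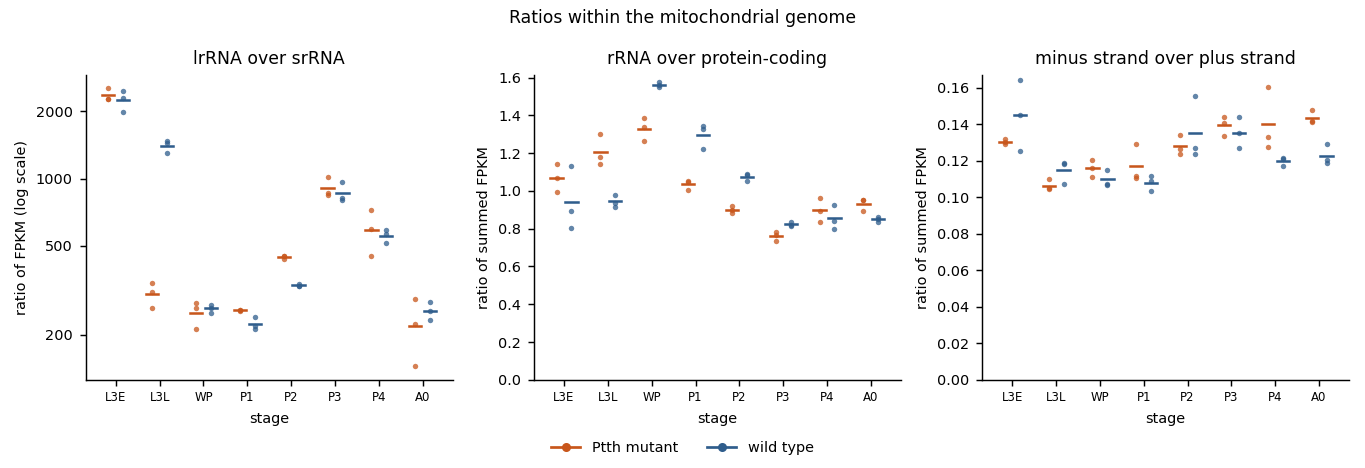
Ratios of FPKM by stage (horizontal axes), 1 point per library and bars at the mean of 3, Ptth mutants left and wild type right: mt:lrRNA over mt:srRNA (log scale), summed rRNA over summed protein-coding mRNA, and minus-strand over plus-strand mRNA (both linear, from 0). At L3L the mt:lrRNA over mt:srRNA ratio averages 305 in mutants and 1407 in wild type, and the groups overlap at WP.

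The tRNA genes were hardly captured. All 22 together held 3124 of 72578280 mitochondrial reads, 5 had no read in any library and 8 passed the filter of 3 FPKM, at which a single read is already worth 0.68 to 0.82 FPKM at the median library size. Summed over the 22, their share of reads on genes was higher in mutants without overlap at L3E, P1 and A0 and lower at L3L. Each has an exact permutation p of 0.1, the smallest possible, and 0.2 after adjustment over the 8 stages. At A0 there were 157, 87 and 100 reads in mutants, against 46, 52 and 30 reads in wild type. The other stages overlapped. No tRNA gene averaged 100 reads, and reads counted on a gene this short could also come from unprocessed precursors, which the data do not distinguish. The largest was mt:tRNA:G, the glycine tRNA between mt:CoIII and mt:ND3, with a mean of 37.0 reads. At L3E it had 61, 42 and 52 reads in mutants, against 27, 17 and 31 reads in wild type (2.04-fold in FPKM, adjusted p = 0.039). At L3L it had 14, 9 and 12 reads in mutants, against 18, 24 and 24 reads in wild type (0.482-fold, adjusted p = 0.0051), the direction of the neighbouring mRNAs. At 96 h it was 2.71-fold higher in mutants (57.7 ± 7.56 FPKM in mutants and 21.3 ± 1.80 FPKM in wild type, SD, n = 3 each, adjusted p = 0.0016 in limma).

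The other tRNA calls rested on a handful of reads. For the tyrosine tRNA mt:tRNA:Y, reads were 0, 1 and 0 in L3L mutants and 3, 4 and 5 in wild type, and 8, 11 and 8 in P1 mutants and 3, 2 and 2 in wild type. For mt:tRNA:R, arginine, reads were 1, 0 and 1 in L3L mutants and 2, 4 and 3 in wild type. The leucine tRNA mt:tRNA:L:UUR had 7, 15 and 5 reads in P1 mutants and 1, 2 and 2 in wild type. The alanine tRNA mt:tRNA:A had 0, 1 and 0 reads in P3 mutants and 4, 2 and 4 in wild type, and was called higher at 96 h, with 6, 2 and 2 reads in mutants and 0, 0 and 0 in wild type. The genotype change of mt:tRNA:G and mt:tRNA:Y differed between L3L and L3E (-2.07 and -2.42, adjusted p = 0.0013 and 0.0014), and that of mt:tRNA:Y and mt:tRNA:R between WP and L3L (2.74 and 2.11, adjusted p = 0.0011 and 0.046). The groups named here do not overlap at the stages given, but at 15 reads or fewer per library the size of the differences is not resolved.

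Through development most protein-coding mRNAs had lower mean levels at each step to P1 and higher ones at P2 and P3, although the steps to WP and P1 changed sign under quantile normalization. In mutants, 10 of 13 had their lowest mean at P1 and 11 their highest at P4. In wild type, 11 of 13 were lowest at P1, 7 were highest at P3 and 4 at P4. Over the 16 group means the median correlation between pairs of the 13 genes was 0.952, and the lowest was 0.535. The weakest partners were mt:ND6 and mt:ATPase8, the 2 with the fewest reads. With the mean of the 13, mt:lrRNA had a correlation of 0.928 and mt:srRNA of -0.119. These correlations are descriptions, since the points share libraries.

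Most of the larval fall came at L3L in mutants. Called lower at L3L against L3E were 12 of 13 in mutants, where 27.5% of all genes tested were lower, and 11 of them fell by more than 2-fold, against 8.18%. The median log2 change was -1.43. For mt:ND2 the level fell to 201, 174 and 260 FPKM at L3L in mutants, against 948, 819 and 698 FPKM at L3E (0.258-fold, adjusted p = 1.7e-07). In wild type 5 of 13 were called lower in that step, against 29.1% of all genes tested, with a median of -0.40. This count was 1, 10 and 0 without replicate 1, 2 and 3 of every stage. At WP against L3L, 4 of 13 were called lower in mutants (28.3% of all genes tested) and 11 of 13 in wild type (31.2%), with medians of -0.38 and -0.85. The mutant count was 1 without replicate 3. For mt:CoI, wild type fell to 4203, 4311 and 3843 FPKM at WP, against 7405, 7696 and 7175 FPKM at L3L (0.555-fold, adjusted p = 2.6e-06).

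The size and sign of the steps to WP and P1 depended on the scaling between libraries. Scaled to all reads on genes, the median of all genes tested moved to 0.49 at WP in wild type, beside 0.07 with the deposited scaling, and that of the 13 mRNAs moved to -0.29. Relative to all genes they thus lay at -0.79, beside -0.92 with the deposited scaling and -0.04 under quantile normalization. In mutants at WP the median of the 13 was 0.01 under that scaling, where all genes lay at 0.33, and 0.41 under quantile normalization. At P1 against WP, 2 of 13 were called lower in mutants (23.9% of all genes tested) and 9 in wild type (25.8%), with medians of -0.33 and -0.47, and under quantile normalization the medians turned to 0.15 and 0.07. The mutant count was 1, 0 and 0 without replicates 1, 2 and 3, and the wild-type count was 0 without replicate 1 and 5 without replicate 3.

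In the pupa most of the mRNAs rose in both genotypes. At P2 against P1, 11 of 13 were called higher in mutants (24.8% of all genes tested) and 11 in wild type (36.8%), with medians of 0.89 and 1.13. At P3 against P2, 11 of 13 were again higher in mutants (22.4%), all 11 by more than 2-fold (8.28%), and 11 in wild type (39.0%), with medians of 1.11 and 0.95. For mt:CoI, P3 mutants had 10376, 9610 and 9116 FPKM, against 4758, 4516 and 4674 FPKM at P2 (2.09-fold, adjusted p = 6.1e-07), and P3 wild type had 10104, 11707 and 13477 FPKM, against 6233, 5206 and 6111 FPKM at P2 (2.01-fold, adjusted p = 5.7e-07). Under quantile normalization, which leaves little room for the most abundant RNAs to move, mt:CoIII and mt:CoI turned negative at P3 in both genotypes and mt:CoII and mt:Cyt-b in wild type. All 14 flight muscle markers were called higher at P2 and again at P3 in both genotypes, with median log2 changes of 3.37 in mutants and 4.11 in wild type at P2, and 2.02 in mutants and 2.43 in wild type at P3. Their part in the rise of the mitochondrial mRNAs was not tested. At P4, 3 of 13 were called higher in mutants (25.2%) and mt:ND2 was called lower in wild type (41.8%). The mutant count was 6, 0 and 1 without replicates 1, 2 and 3, and the wild-type call was lost without replicate 1 or 3. At A0, 6 of 13 were called lower in mutants (38.0%) and mt:ND3 in wild type (35.0%). The mutant count was 0 without replicate 2 and 10 without replicate 3, and the wild-type call was lost without replicate 1 or 2 and without the libraries that stood apart.

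The nuclear genes of the same complexes offered a comparison within the same libraries. Of 69 nuclear subunit genes of complexes I to V, 66 were tested. At L3L 65 were called lower in mutants and 1 higher, where 20.0% of all genes tested were called lower. Their median log2 change was -1.0, beside -0.80 for the mitochondrial mRNAs and 0.02 for all genes tested. Examples are COX4 of complex IV (253 ± 20.2 FPKM in mutants and 515 ± 1.27 FPKM in wild type, SD, n = 3 each, log2 change -1.03, adjusted p = 0.00062 in limma), UQCR-6.4 of complex III (log2 change -1.57) and sun, the epsilon subunit of ATP synthase (log2 change -1.41). The exception was ND-MWFE, at 3.12 FPKM in mutants and 0.996 FPKM in wild type. Lower by a similar amount was SdhA of complex II, which has no mitochondrially encoded subunit (log2 change -0.78). At 96 h, 57 were called higher in mutants, where 14.3% of all genes tested were, with a median of 0.68, beside 0.60 for the mitochondrial mRNAs and 0.03 for all genes tested. Under quantile normalization the nuclear medians were -0.54 at L3L and 0.32 at 96 h.

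From P1 to P3 the median changes of nuclear and mitochondrial genes had opposite signs, except at P1 under quantile normalization, where the mitochondrial median was 0.00. The median over all genes tested was 0.03 at P1, 0.01 at P2 and 0.00 at P3, so the nuclear median of P1 lay close to it. At P2, 62 of 66 nuclear changes were positive with a median of 0.26. Called higher were 3 of 66, where 5.15% of all genes tested were: blw, the alpha subunit of ATP synthase (997 ± 37.9 FPKM in mutants and 630 ± 75.9 FPKM in wild type, SD, n = 3 each, adjusted p = 0.03 in limma), SdhA and ND-B22. All 13 mitochondrial mRNAs had negative changes at that stage, with a median of -0.47. At P3, 19 nuclear genes were called higher and 2 lower, where 9.79% of all genes tested were called higher and 26.4% in either direction. The nuclear median was 0.10 at P3, beside a mitochondrial median of -0.27, and at P1 the medians were 0.06 and -0.22. Both were negative at WP, at -0.33 and -0.42, and both positive at P4, at 0.10 and 0.09, although the mitochondrial one was 0.00 there under quantile normalization. The nuclear medians of these 5 stages kept their sign under the other scalings, down to 0.02 at P1, 0.01 at P3 and 0.01 at P4. The value of P1 came from scaling to reads on nuclear genes, where all genes tested lay at 0.01. Those of P3 and P4 came from quantile normalization, where all genes tested lay at 0.08 and 0.00. The sign of the nuclear medians at P1 and P3 thus does not set them apart from all genes. The difference between the genomes was not tested, since genes are not replicates. At P1 against WP, 24 of 66 nuclear genes were called higher and 1 lower in mutants, where 38.9% of all genes tested were called higher and 23.9% lower. The nuclear median of that step was 0.19, beside 0.13 for all genes tested. In wild type 1 nuclear gene was called higher and 17 lower, where 35.4% of all genes tested were called higher and 25.8% lower, but the direction turned with the scaling, to 25 higher and 1 lower when scaled to all reads on genes and 32 higher and 1 lower under quantile normalization. The mutant count was 56 higher under either of these. At WP against L3L the nuclear median was -1.07 in mutants and -1.75 in wild type (-0.64 and -1.03 under quantile normalization).

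**Figure D5:**
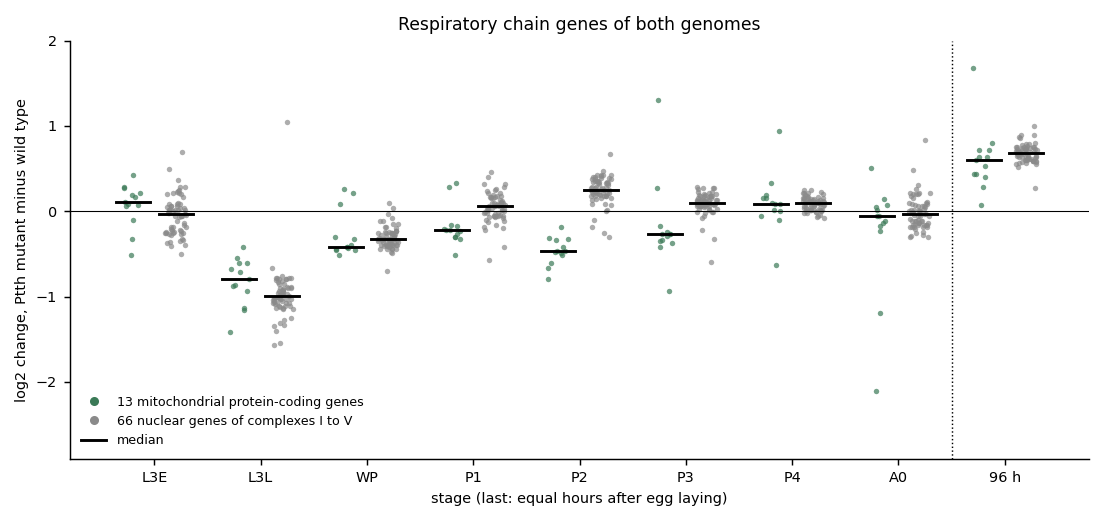
Log2 change (vertical axis, Ptth mutant minus wild type) of the 13 mitochondrial protein-coding genes (green) and 66 nuclear genes of complexes I to V (grey), 1 point per gene, bars at the median, at 8 stages and at an equal 96 h. The medians are -0.80 and -1.0 at L3L, 0.60 and 0.68 at 96 h, and -0.47 and 0.26 at P2 for mitochondrial and nuclear genes.

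Some nuclear genes of the machinery of mitochondrial RNA were called lower in mutants at L3E, where 41.9% of all genes tested were called and 18.2% were called lower. Of 6 tested genes of mitochondrial transcription, 3 were called lower. They were mtRNApol, the mitochondrial RNA polymerase (4.23 ± 0.628 FPKM in mutants and 10.1 ± 1.58 FPKM in wild type, SD, n = 3 each, log2 change -1.09, adjusted p = 0.0033 in limma), TFAM, which packages mitochondrial DNA and helps start transcription (log2 change -0.63), and mTTF, a transcription termination factor (log2 change -0.49). Of 9 tested genes of RNA processing and stability, 6 were called lower and 1 higher. The largest were bsf, which stabilises mitochondrial mRNAs (21.8 ± 4.12 FPKM in mutants and 59.1 ± 5.50 FPKM in wild type, SD, n = 3 each, log2 change -1.41, adjusted p = 0.0016 in limma), and the RNA helicase Suv3 (log2 change -1.32). The gene called higher was scu, a dehydrogenase that is also part of mitochondrial RNase P (log2 change 0.51). Of 4 tested genes of mitochondrial DNA maintenance, mtDNA-helicase and the protease gene Lon were called lower. Mutant larvae at this stage were older than wild-type larvae, and fat body markers summed to 37799 to 41194 FPKM in mutants and 1930 to 5342 FPKM in wild type, so the staging of the groups and genotype cannot be told apart here. At L3L 44.4% of all genes tested were called and 20.0% were called lower. There mTTF (log2 change -0.83) and TFAM (log2 change -0.27) were lower and mtRNApol was higher (log2 change 0.25). Of 9 genes of RNA processing and stability 4 were lower, among them scu (log2 change -0.76), Suv3 (log2 change -0.42) and JhI-1 (log2 change -0.23). The DNA maintenance gene Top3alpha was higher (log2 change 0.46). At P1, where 36.7% of all genes tested were called, mtRNApol, bsf, Suv3, mtDNA-helicase and Lon were higher, with log2 changes between 0.33 and 0.43. Called lower at P1 was mTTF (log2 change -0.55). At P2 9.43% of all genes tested were called and 5.15% were called higher. There mtRNApol, mtTFB2, bsf and Suv3 were called higher, with log2 changes between 0.24 and 0.32.

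The nuclear genes whose course was most like that of the mitochondrial mRNAs were sought over the 16 group means. The highest Pearson correlations with the mean of the 13 were those of CG9231 (0.985), ND-AGGG of complex I (0.982), QIL1, the fly relative of a human MICOS subunit (0.978), ND-B14.7 of complex I (0.977) and UQCR-11 of complex III (0.976). The median over the nuclear subunits was between 0.954 and 0.96 in each of the 5 complexes, against -0.0277 over all 12259 nuclear genes tested. For the genes of mitochondrial transcription it was 0.544, for RNA processing 0.534 and for DNA maintenance 0.356. These values describe 16 group means that share libraries and carry no test.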

How the data were processed

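Poly(A) RNA of whole animals was sequenced in 48 libraries, grouped by stage and genotype from the labels. The authors deposited FPKM values per gene, with 1 column per library. The labels name HISAT2 2.0.5, featureCounts 1.5.0-p3 and build BDGP6, whereas the methods of the study name STAR and htseq-count, so which tools made the table is unsettled. FPKM steps gave whole reads within 0.001 read for 100% of values in every library, and the deposited scaling equals median-of-ratios size factors rather than library totals. The reads behind a library's FPKM scale were 0.63 to 1.51 times its own total, so levels relative to all reads can differ from FPKM.

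Log2(FPKM + 1) was tested with limma 3.58.1 (R 4.3.3, lmFit and eBayes with trend) after keeping genes with 3 FPKM in at least 1 library, 1 fit per stage for genotype and 1 per genotype for neighbouring stages, with Benjamini-Hochberg adjustment over 12282 genes. Differences of the genotype change between neighbouring stages came from 1 fit over 48 libraries. Shares and ratios used exact two-sided permutation tests. Alternatives were a pseudocount of 0.1, other filters, 3 other scalings, limma-voom on recovered reads, 1 fit over 48 libraries, a replicate block and leaving out libraries. The effect of the 3 libraries that stood apart (nearest replicate over 1.4 times as far as the others are from each other), of each library on shares and ratios, and of the scalings on the nuclear subunit genes was added after seeing the data. The limma script was tested on simulated data with known changes. Replicates are described as biological, and every replicate pair differed beyond sampling noise (lowest chi-square per degree of freedom 5.83 over 48 pairs). The members and all gene lists were chosen with earlier results of these data known. Named were all protein-coding and rRNA genes, tRNA genes with 100 reads on average or a genotype call, up to 4 members per nuclear list and the 5 nuclear genes most alike. Nuclear list symbols were matched by file symbol or reference symbol.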

Additional observations from a re-analysis of the deposited data

Results flagged for a closer look

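The change between genotypes (log2, Ptth mutant minus wild type) was compared between neighbouring stages in 1 fit over 48 libraries, and the genes below differed between stages by that test. From L3E to L3L the genotype change moved by -0.90 for mt:CoIII, -0.77 for mt:CoI, -1.09 for mt:CoII, -0.78 for mt:Cyt-b and -1.20 for mt:ATPase6. It moved by -1.0 for mt:ND1, -1.28 for mt:ND2, -1.56 for mt:ND3, -0.94 for mt:ND4 and -0.78 for mt:ND5. For the large rRNA mt:lrRNA it moved by -0.77, and for the small rRNA mt:srRNA by 1.48, against the direction of the others. From L3L to WP it moved by 1.68 for mt:ND4L and by -2.34 for mt:srRNA. At L3E and L3L the mutant larvae were older than the wild-type larvae, so age and genotype cannot be told apart in these differences.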

How the results depend on the processing

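All counts here are of the 13 protein-coding genes called, in the direction named, and the cause of a change was not tested. The share of all genes tested that each setting called is not given here. The counts therefore show how calls moved with the setting, not an excess over all genes. Stage steps are against the stage before. Under quantile normalization the genotype comparison gave 4 lower at L3E, 6 lower at P2 and 7 lower at P3. The mutant steps gave 6 higher and 0 lower at WP, 3 higher and 0 lower at P1, 5 higher at P2, 6 higher and 1 lower at P3, 8 higher at P4 and 2 lower at A0. The wild-type steps gave 8 lower at L3L, 4 higher and 0 lower at WP, 2 higher and 1 lower at P1, 6 higher and 4 lower at P3, 3 higher at P4 and 1 higher at A0. Log2 changes that reversed under it were 0.06 for mt:CoIII at L3L between genotypes, and in mutants 0.47 for mt:CoIII, 0.58 for mt:CoI, 0.41 for mt:Cyt-b and 0.24 for mt:ND1 at WP, 0.45 for mt:CoIII and 0.33 for mt:CoI at P1, and -0.34 for mt:CoIII and -0.24 for mt:CoI at P3. In wild type they were 0.67 for mt:CoIII, 0.56 for mt:CoI, 0.28 for mt:CoII, 0.29 for mt:Cyt-b, 0.08 for mt:ND4, 0.21 for mt:ND5 and 0.09 for mt:ND2 at WP. At P1 they were 0.31 for mt:CoIII, 0.11 for mt:CoI, 0.05 for mt:CoII, 0.09 for mt:ND1, 0.07 for mt:ND3, 0.12 for mt:ND4 and 0.03 for mt:ND5, and at P3 -0.34 for mt:CoIII, -0.29 for mt:CoI, -0.29 for mt:CoII and -0.28 for mt:Cyt-b.

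Scaling to all reads on genes gave 1 lower at WP, 7 at P2 and 3 at P3 between genotypes, 1 higher and 0 lower at WP, 0 lower at P1 and 1 lower at A0 in mutants, and 5 lower at WP and 0 at P1 in wild type. Scaling to reads on nuclear genes gave 1 lower at WP, 7 at P2 and 4 at P3 between genotypes, 0 lower at WP, 0 at P1 and 1 at A0 in mutants, and 3 lower at WP and 0 at P1 in wild type. With limma-voom on recovered reads there were 7 lower at WP, 1 at P1, 4 at P2 and 4 at P3 between genotypes, 9 higher at 96 h, and in mutants 4 lower at P1 and 5 higher at P4. A single fit over 48 libraries gave 2 lower at WP, 4 lower at P2, 0 higher at P3, 1 lower at A0 and 10 higher at 96 h. Without a filter there were 0 lower at P2 and 0 higher at P3, and with 3 FPKM in at least 3 libraries 1 lower at P3. Above 2-fold there were 3 lower at L3L and 0 at P2 between genotypes and 1 higher at 96 h. In mutant steps there were 0 lower at WP and at P1, 1 higher at P2, 0 higher at P4 and 0 lower at A0, and in wild type 1 lower at L3L, 2 at WP, 0 at P1, 5 higher at P3, and 0 lower at P4 and at A0.

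The replicate numbers did not pair the samples. The correlation of deviations of same-numbered libraries ran from -0.43 to 0.47, and was over 0.1 at 6 of 24. A replicate block gave 5 lower at L3L, 0 lower at P2 and 0 higher at P3 between genotypes. Leaving out 1 library in turn gave, between genotypes, 0 to 1 lower at L3E, 6 to 12 lower at L3L, 0 to 1 lower at WP, 0 to 0 lower at P2, 0 to 1 higher at P3 and 0 to 9 higher at 96 h. Leaving out 1 replicate number from all stages gave, in mutants, 1 to 4 lower at WP, 0 to 1 lower at P1, 0 to 6 higher and 0 to 1 lower at P4 and 0 to 10 lower at A0. In wild type it gave 0 to 10 lower at L3L, 0 to 9 lower at P1, 0 to 1 lower at P3, 0 to 1 higher and 0 to 1 lower at P4 and 0 to 1 higher and 0 to 1 lower at A0. Without the 3 libraries that stand apart there were 0 higher at P3 between genotypes, 1 higher at P4 in mutants and 0 lower at A0 in wild type. Reads limit mt:ATPase8, mt:ND6 and the tRNA genes most.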
